A study of Rattus norvegicus with 6 samples.

Results

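Glucuronidation is described here through 8 rat genes: the UDP-glucuronosyltransferase genes Ugt1a1, Ugt1a6, Ugt1a7c, Ugt2b7 and Ugt2b35, the related glycosyltransferase gene Ugt8, and the sugar supply genes Ugdh and Ugp2. They were chosen by name, as members of a pathway, and were matched to array probes through the transcript accession that the scanner files give for each probe. Of these 8 genes, 7 had at least 1 probe, among 15284 symbols with a probe on the array, and Ugt1a7c had no matched probe and was not analysed here. The 7 genes had 12 probes, of which 11 exceeded background clearly in every animal of a group, in either group or both, and were tested. The RNA came from the renal cortex of male Sprague-Dawley (Crl:CD(SD)) rats, aged 5 weeks at purchase and kept on a basal diet. The 3 control animals received corn oil for 4 weeks, and the 3 treated animals received anthraquinone, a tricyclic quinone, at 1000 mg/kg/day over the same time. Each animal was measured on its own 1-colour (Cy3) Agilent array, and the question of the series is which genes differ in expression between these groups.

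Glucuronidation joins glucuronic acid to drugs, bilirubin, steroids and phenols, which makes them more soluble and lets transporters carry them into urine and bile. The enzymes are called UGTs and sit in the membrane of the endoplasmic reticulum, and in the kidney they are found mainly in the proximal tubule. Their sugar donor is UDP-glucuronic acid: Ugp2 encodes the pyrophosphorylase that makes UDP-glucose, and Ugdh encodes the dehydrogenase that oxidises UDP-glucose to UDP-glucuronic acid. UGT genes of the 1A group are made from 1 locus, in which alternative first exons are spliced to a common set of 3' exons, while 2B genes are separate neighbouring genes. In the RefSeq table of rat assembly GRCr8, 8 protein-coding Ugt1a genes on chromosome 9 had 8 different starts and the same end, whereas 9 protein-coding Ugt2b genes on chromosome 14 had 9 different ends. Probes in the common exons of the 1A locus, or in stretches that 2B genes share, can read more than 1 of these transcripts, and the probe sequences were not used here.

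The promoters of the Ugt2b genes are shown because the largest difference among the members was found in that cluster. On their brightest probes the neighbouring genes had much smaller differences, while dimmer probes of Ugt2b15 and Ugt2b37 gave 1.28 and 1.37. The 100 bases before the annotated start are given 5′ to 3′ on the plus strand (RefSeq, GRCr8), with capitals for the longest run that all 4 measured Ugt2b promoters have in common within 250 bases before the start. This run was looked for after the expression values were seen.
Ugt2b7, chr14:21251435-21251534: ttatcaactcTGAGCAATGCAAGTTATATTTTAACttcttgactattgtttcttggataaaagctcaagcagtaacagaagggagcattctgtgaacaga
Ugt2b35, chr14:21208341-21208440: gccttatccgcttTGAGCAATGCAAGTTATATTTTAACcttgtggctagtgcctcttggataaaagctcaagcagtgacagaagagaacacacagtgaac
Ugt2b15, chr14:21122766-21122865: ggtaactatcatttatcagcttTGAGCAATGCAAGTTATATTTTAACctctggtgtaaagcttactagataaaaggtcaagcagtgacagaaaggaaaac
Ugt2b37, chr14:21172036-21172135: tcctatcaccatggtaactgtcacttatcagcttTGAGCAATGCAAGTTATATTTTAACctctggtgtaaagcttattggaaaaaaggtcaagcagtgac
The run is 25 bases long and was present, on either strand, in 7 of 33469 promoters of the same length (0.0209%), 6 of them Ugt2b genes by name. It begins 90 bases before the start in Ugt2b7, 87 in Ugt2b35, 78 in Ugt2b15 and 66 in Ugt2b37. The match is a description of the letters and does not separate Ugt2b7, whose arrays differed most, from the other 3 genes.

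Ugt1a6 is a textbook target of the aryl hydrocarbon receptor, whose binding sites have the core GCGTG. The 150 bases before its annotated start, on the plus strand (RefSeq, GRCr8), hold this core in capitals.
Ugt1a6, chr9:96194868-96195017: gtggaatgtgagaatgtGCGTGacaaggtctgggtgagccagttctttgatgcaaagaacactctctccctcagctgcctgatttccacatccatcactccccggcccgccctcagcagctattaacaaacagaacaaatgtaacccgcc
On either strand, GCGTG was found within 250 bases before the start of 5 of the 8 members (Ugt1a6, Ugt1a7c, Ugt8, Ugdh and Ugp2) and in 25.9% of all 33469 promoters. TGACNNNGC, the core of the antioxidant response element through which Nrf2 acts, was found in 1 member, Ugdh, and in 10.1% of all promoters, and in Ugdh this match begins 207 bases before the start, where it overlaps the GCGTG match.

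Values are log2 of the background-corrected intensity minus the log2 of each array's 75th percentile, so 0 is the 75th percentile of that array and a difference of 1 is a doubling. Levels of different probes are not compared, since probes differ in how strongly they bind. The 75th percentile was 903 to 1191 in corn oil versus 844 to 880 in anthraquinone arrays, and 68.7 to 70.7% and 64.2 to 66.1% of probes were well above background. No probe of a UGT gene, Ugdh or Ugp2 was saturated. Corn oil replicate 1 was on another slide and scan day than the other 5 arrays, whose slide held corn oil in row 1 and anthraquinone in row 2. Within that slide, row and treatment cannot be told apart. All 10 proximal tubule markers were well above background on all 6 arrays, and their summed level was 2370 to 2769 times the 75th percentile in corn oil versus 2597 to 2908 in anthraquinone. In bulk tissue, fewer cells of a type and less RNA per cell cannot be told apart.

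Of the 7 measured members, 0 passed the limma test over all gene entries (adjusted p under 0.05), which 0.0276% of the 32663 entries did (0.0153% higher and 0.0122% lower with anthraquinone). At an unadjusted p under 0.05, 1 member was higher with anthraquinone, Ugt2b7, and 1 was lower, Ugt8, against 9.47% and 7.65% of all entries. The median log2 difference over these 7 members was 0.03, and over all entries it was 0.01. The groups did not overlap for 3 members, with Ugt2b7 and Ugt1a6 higher and Ugt8 lower, where 15.0% of all entries were higher without overlap and 10.2% lower. An exact permutation test of 3 against 3 animals cannot give a two-sided p below 0.10. Any entry without overlap reaches that value, so for these 3 genes it only restates the lack of overlap. The remaining members (Ugt1a1, Ugt2b35, Ugdh and Ugp2) overlapped between the groups.

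**Figure D1:**
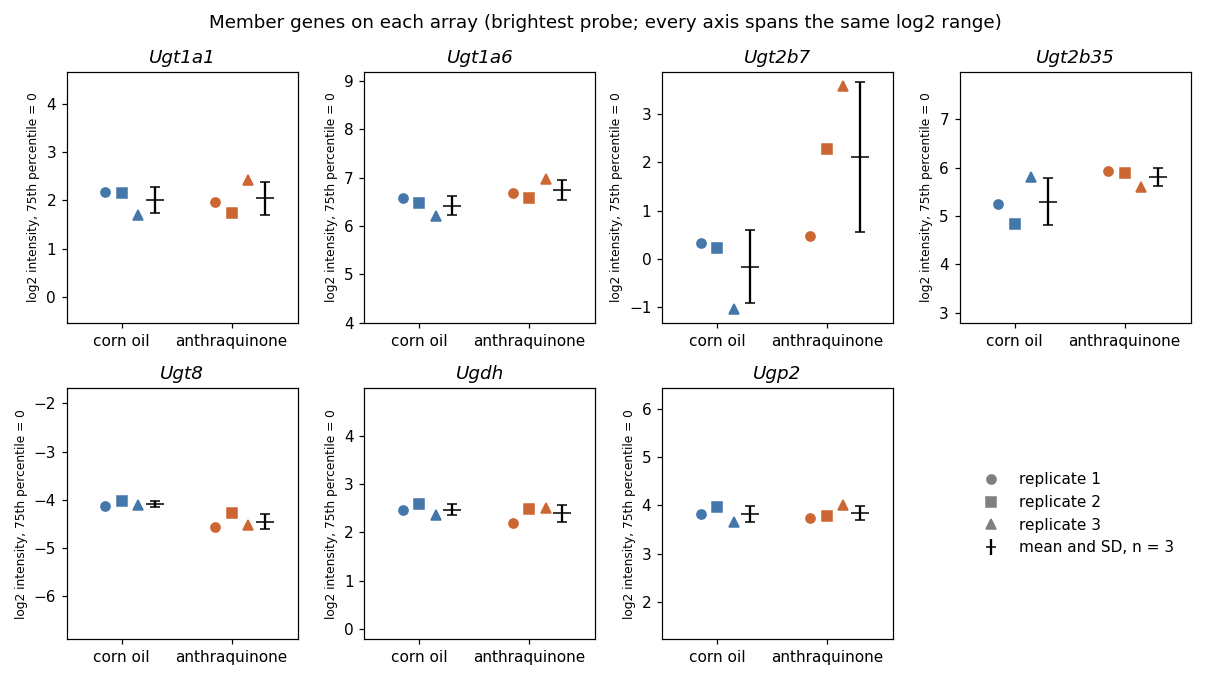
Log2 intensity (y axis, 75th percentile of the array = 0) of the 7 measured members on each array, with corn oil and anthraquinone on the x axis, symbols for replicates, and the mean with its SD (n = 3) beside them. Each panel spans the same log2 range, so the spread of the 3 anthraquinone animals for Ugt2b7, from 0.47 to 3.58, can be set against the tight groups of Ugt8, Ugdh and Ugp2.

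Ugt2b7 (probe A_44_P318323) encodes a UGT of the 2B group, which conjugates steroids, bile acids and drugs. Its values, in the order of replicates 1 to 3 as throughout, were 0.33, 0.22 and -1.03 in corn oil versus 0.47, 2.28 and 3.58 in anthraquinone. Anthraquinone replicate 1 lay just above the control animals, by 0.14 on the log2 scale over the highest of them, and replicates 2 and 3 lay far above. Set against the corn oil mean, the 3 treated animals were at 1.55, 5.43 and 13.4 times its level, so they differed 8.62-fold among themselves, while the control animals differed 2.58-fold. The group means were -0.16 ± 0.76 in corn oil versus 2.11 ± 1.56 in anthraquinone (SD, n = 3 each). The difference was 2.27 ± 0.81 (SE, 95% interval 0.30 to 4.24), or 4.82-fold, and it did not pass over all entries (limma adjusted p = 0.249). Leaving out anthraquinone replicate 3 gave 1.54, leaving out replicate 1 gave 3.09, and the difference was 2.52 on the shared slide alone, that is without corn oil replicate 1 (limma adjusted p = 0.351). Over the 16 alternatives the difference stayed above 0, with limma adjusted p no lower than 0.137. Several of them changed only the filter, the variance model or the replicate block, and so left the estimate at 2.27.

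Ugt2b35 (probe A_44_P236068), a 2B transferase gene of the same cluster on chromosome 14, was at 5.25, 4.84 and 5.80 in corn oil versus 5.92, 5.89 and 5.60 in anthraquinone. Corn oil replicate 3 lay within the range of the treated animals, which were themselves close together, and corn oil replicate 2 was the lowest of the 6. The difference was 0.51 ± 0.25 (SE, 95% interval -0.09 to 1.11, limma adjusted p = 0.35), and 0.28 without corn oil replicate 2. Against the corn oil mean the 3 treated animals were at 1.54, 1.51 and 1.23 times its level.

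The other measured 2B genes, Ugt2b15 and Ugt2b37, each had a pair of tested probes, and within each gene the probes gave different pictures. The brighter probe of Ugt2b15, A_44_P247784, was at 1.06, 0.71 and 1.65 in corn oil versus 1.74, 1.71 and 1.53 in anthraquinone, a difference of 0.52 ± 0.24 (SE), or 0.30 without corn oil replicate 2. Its dimmer probe, A_64_P011301, was at -1.74, -1.90 and -1.32 in corn oil versus -0.93, -0.58 and 0.38 in anthraquinone, a difference of 1.28 ± 0.35 (SE, limma adjusted p = 0.200 over all probes). All 3 treated animals lay above all 3 controls on this probe, and replicate 3 was again the highest. For Ugt2b37, the brighter probe A_64_P099254 differed by 0.57 ± 0.26 (SE), with overlapping groups, and by 0.33 without corn oil replicate 2. The dimmer probe A_42_P670179 was at -4.81, -4.43 and -4.32 in corn oil versus -4.84, -3.03 and -1.59 in anthraquinone, a difference of 1.37 ± 0.77 (SE, limma adjusted p = 0.406 over all probes). On it, as on the Ugt2b7 probe, anthraquinone replicate 1 was near the control animals and replicate 3 was the highest, at 7.62 times the corn oil mean. Leaving out that animal gave a difference of 0.58, and leaving out replicate 1 gave 2.21.

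Different patterns could thus be seen across the 6 arrays, described here by the Pearson correlation with no test, since the points share the same arrays and groups. The bright probes of Ugt2b35 and Ugt2b37 followed each other closely (r = 0.999): after each was centred on its own mean they differed by at most 0.07 on any array, while each ranged over 1.08 and 1.16. The Ugt2b7 probe followed the dimmer probes of Ugt2b37 (r = 0.888) and Ugt2b15 (r = 0.844) but not the bright Ugt2b35 probe (r = 0.172). These genes are close relatives, and whether the probes read 1 or several transcripts was not tested.

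**Figure D2:**
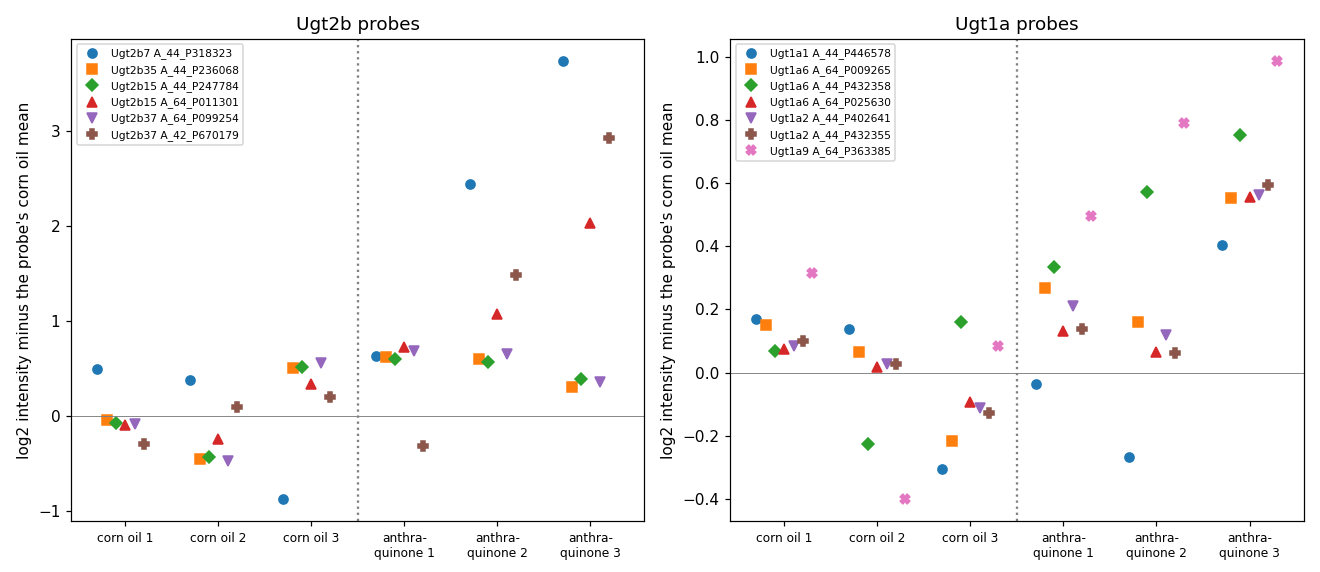
Log2 intensity of each tested Ugt2b probe (left) and Ugt1a probe (right) minus the mean of that probe over the 3 corn oil arrays (y axis), for each of the 6 arrays (x axis). On the left the Ugt2b7 probe and the dimmer Ugt2b15 and Ugt2b37 probes lie highest in anthraquinone replicate 3, at 3.74, 2.03 and 2.93, while the bright Ugt2b35, Ugt2b15 and Ugt2b37 probes stay between 0.30 and 0.69 in all 3 treated animals.

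Ugt1a6 encodes a UGT of planar phenols and is known as a target of both the aryl hydrocarbon receptor and Nrf2. Its brightest probe, A_64_P009265, was at 6.57, 6.49 and 6.21 in corn oil versus 6.69, 6.58 and 6.98 in anthraquinone. The treated animals were all higher, but the lowest of them exceeded the highest control by only 0.0073 on the log2 scale. The difference was 0.33 ± 0.14 (SE, 95% interval -0.025 to 0.68, limma adjusted p = 0.317). It was smaller after quantile normalization (0.14) and with the normexp background correction followed by quantile normalization (0.13), and it was 0.21 without anthraquinone replicate 3.

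The other 2 probes of Ugt1a6 flanked this value. Probe A_44_P432358, which is listed under a different transcript accession of the gene, was at 0.38, 0.08 and 0.47 in corn oil versus 0.64, 0.88 and 1.06 in anthraquinone. Its groups did not overlap and its difference was 0.55 ± 0.15 (SE, limma adjusted p = 0.197 over all probes), and it was 0.55 after quantile normalization too. Probe A_64_P025630 was at 4.24, 4.18 and 4.08 in corn oil versus 4.30, 4.23 and 4.73 in anthraquinone, a difference of 0.25 ± 0.14 (SE) with overlap between the groups, and of 0.099 without anthraquinone replicate 3.

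The probe pattern of the 1A locus followed more than the gene names. Probe A_64_P025630 of Ugt1a6 and probe A_44_P432355 of Ugt1a2, once centred, differed by at most 0.04 on any array (r = 0.998 over the 6 arrays), and both Ugt1a2 probes were close to it, with the other, A_44_P402641, at most 0.06 away. The differences of the Ugt1a2 probes A_44_P402641 and A_44_P432355 were 0.30 ± 0.13 and 0.26 ± 0.16 (SE), and 0.17 and 0.10 without anthraquinone replicate 3. Probe A_44_P432358 of Ugt1a6 was less like the brightest probe of its own gene (r = 0.643) than like the only probe of Ugt1a9 (r = 0.968), a phenol-conjugating 1A enzyme gene. That Ugt1a9 probe was at -2.88, -3.60 and -3.11 in corn oil versus -2.70, -2.41 and -2.21 in anthraquinone, a difference of 0.76 ± 0.21 (SE, limma adjusted p = 0.204 over all probes) without overlap. Probes of the common exons would read all 1A transcripts together, so the values by gene name are uncertain, and the share of each first exon was not tested.

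Ugt1a1 encodes the UGT that conjugates bilirubin. Its single probe, A_44_P446578, was at 2.18, 2.15 and 1.70 in corn oil versus 1.97, 1.74 and 2.41 in anthraquinone. The groups overlapped throughout, and the lowest and the highest of the 6 values were those of corn oil replicate 3 and anthraquinone replicate 3. The difference was 0.03 ± 0.21 (SE, 95% interval -0.48 to 0.55, limma adjusted p = 0.956). Its sign turned without anthraquinone replicate 3 (-0.15) or corn oil replicate 3 (-0.12).

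Across the UGT1A and UGT2B genes, the members among them included, 13 probes were tested. All 13 had a difference above 0, from 0.03 to 2.27, where 51.6% of all gene entries did. Of the 13, 0 passed over all probes (lowest limma adjusted p = 0.197), where 0.0339% of the 41310 probes tested did (0.0194% higher and 0.0145% lower). At an unadjusted p under 0.05, 4 were higher and 0 lower, against 9.22% and 8.15% of all probes: 1 probe each of Ugt1a6, Ugt1a9, Ugt2b7 and Ugt2b15. Groups were higher without overlap for 6 of the 13, against 14.5% of all probes. These probes share loci and, in part, transcripts, so they are not independent. All 13 were also above 0 after median scaling and after quantile normalization, and 12 of 13, with Ugt1a1 below 0, under the normexp correction and when replicate 3 of either group was left out. A further 5 UGT genes, Ugt2a1 (known from olfactory tissue), Ugt2a3, Ugt2b, Ugt2b1 and Ugt2b10, had no probe well above background, so they have no measured difference.

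**Figure D3:**
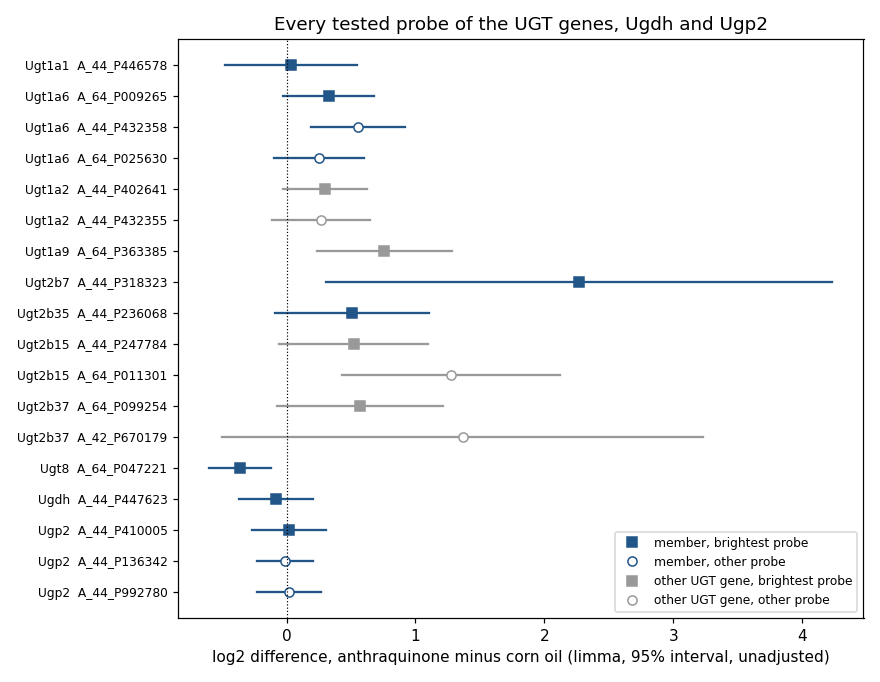
Log2 difference between anthraquinone and corn oil (x axis, limma estimate with its unadjusted 95% interval) for each of the 18 tested probes (y axis); blue marks members, grey marks other UGT genes, and filled squares mark the brightest probe of a gene. All Ugt1a and Ugt2b probes, which are not independent, lie right of 0, where 51.6% of all gene entries do. The Ugt8 probe lies left of 0, and the Ugdh and Ugp2 probes lie close to it.

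Ugt8 shares the UGT fold but transfers galactose, not glucuronic acid: it makes galactosylceramide, a membrane lipid of myelin and of the kidney that is the precursor of sulfatide. Its tested probe, A_64_P047221, was at -4.13, -4.02 and -4.11 in corn oil versus -4.55, -4.27 and -4.52 in anthraquinone. All 3 treated animals lay below all 3 controls, by at least 0.14 on the log2 scale. The difference was -0.36 ± 0.10 (SE, 95% interval -0.60 to -0.12), or 0.779-fold, and did not pass over all entries (limma adjusted p = 0.205). This probe was dim but well above background on all 6 arrays, and its difference was -0.19 with the normexp correction. The other Ugt8 probe, A_44_P306162, was well above background on 1 corn oil array only and was not tested.

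Neither supply gene differed beyond the spread between animals. Ugdh (probe A_44_P447623) was at 2.47, 2.59 and 2.36 in corn oil versus 2.18, 2.48 and 2.51 in anthraquinone. Anthraquinone replicate 1 was the lowest of the 6, and the other 2 treated animals lay within the control range. The difference was -0.08 ± 0.12 (SE, 95% interval -0.37 to 0.21, limma adjusted p = 0.764), and 0.02 without anthraquinone replicate 1. Ugp2 was at 3.83, 3.97 and 3.65 in corn oil versus 3.73, 3.78 and 4.0 in anthraquinone on its brightest probe, A_44_P410005, with a difference of 0.02 ± 0.12 (SE, 95% interval -0.27 to 0.31, limma adjusted p = 0.945). The other 2 Ugp2 probes, A_44_P136342 and A_44_P992780, gave -0.01 ± 0.09 and 0.02 ± 0.10 (SE), so the 3 probes of this gene gave the same picture. These intervals exclude a doubling or halving of either gene, which does not show that they were the same in both groups.

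**Figure D4:**
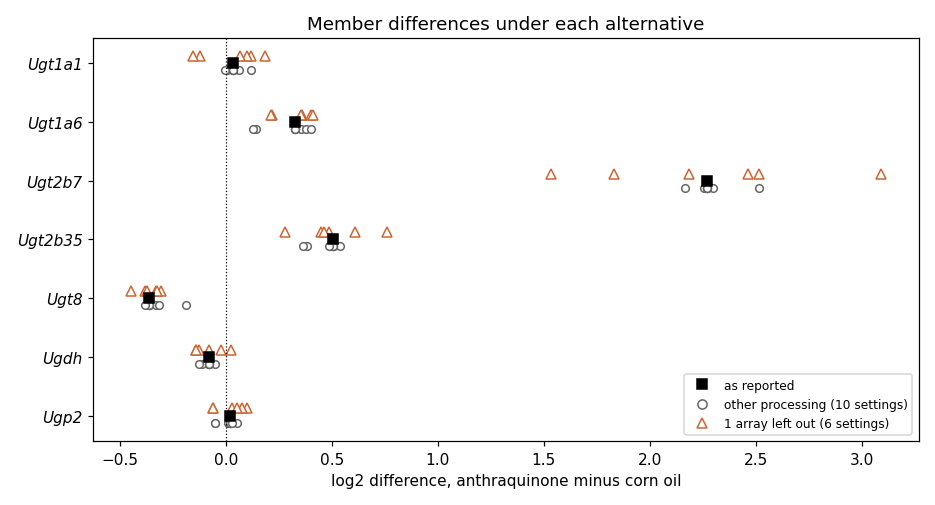
Log2 difference between anthraquinone and corn oil (x axis) of each measured member (y axis) as reported (black squares), under 10 other processing settings (grey circles) and with 1 array left out (orange triangles). Ugt2b7 moved most, between 1.54 and 3.09, while Ugt1a1, Ugdh and Ugp2 crossed 0.

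Around the members, genes that supply and use the sugar donor were counted over lists of whole pathways. Of 16 tested genes of sugar nucleotide supply and use, 0 passed over all entries, 0 were higher and 3 lower at an unadjusted limma p under 0.05, against 9.47% and 7.65% of all entries, and the median difference was -0.05. Among the largest values were those of the hexokinase gene Hk1 (-0.30 ± 0.08, SE) and Uxs1, whose enzyme turns UDP-glucuronic acid into UDP-xylose (-0.26 ± 0.08). Of 8 genes of the glucuronate and ascorbate side branches, 0 passed, and 3 were higher and 1 lower at an unadjusted p under 0.05, against 9.47% and 7.65% of all entries (median 0.15). Here the lactonase gene Rgn had a difference of -1.42 ± 0.36, the glucuronate reductase gene Akr1a1 0.42 ± 0.11 and the sorbitol dehydrogenase gene Sord 0.40 ± 0.09 (SE). Akr1a1 was at 0.24 after quantile normalization and 0.25 with the normexp correction. Gusb, which encodes the lysosomal enzyme that splits glucuronides, had a difference of -0.21 ± 0.08 (SE, limma adjusted p = 0.254), and of -0.33 as the mean of its probes. Of 6 tested genes of glycosaminoglycan assembly, which also draws on UDP-glucuronic acid, 0 passed. At an unadjusted p under 0.05, 0 were called, against 9.47% higher and 7.65% lower over all entries. Their median difference was -0.04, and the largest differences were those of Has1 (0.21), Chpf (-0.15) and B3gat3 (0.11). Leaving out 1 array moved Has1 to between 0.13 and 0.32 (without anthraquinone replicates 3 and 2) and Chpf to between -0.28 and -0.076 (without corn oil replicates 3 and 1).

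Some of the efflux pumps that carry glucuronides out of the cell had larger values, with 3 genes above 0 and 1 below 0. Of 4 tested genes, 0 passed over all entries and 2 were higher at an unadjusted p under 0.05, where 9.47% of all entries were, with a median difference of 0.84. They were Abcc2, the apical pump (1.40 ± 0.37, SE, limma adjusted p = 0.202), and Abcc4 (1.19 ± 0.24, SE, limma adjusted p = 0.182), followed by Abcc3 at 0.49 ± 0.24. Without anthraquinone replicate 3, Abcc2 was at 0.96, Abcc4 at 1.02 and Abcc3 at 0.24. In the galactolipid pathway beside Ugt8, 0 of 6 genes passed (median -0.08). At an unadjusted p under 0.05, 0 were called, against 9.47% higher and 7.65% lower over all entries. The largest differences were those of the sulfotransferase gene Gal3st1 (-0.17 ± 0.11, SE), the fatty acid hydroxylase gene Fa2h (-0.16 ± 0.08) and the prosaposin gene Psap (0.15 ± 0.10). Gal3st1 was at -0.060 without anthraquinone replicate 2, Psap at 0.087 without corn oil replicate 3 and at 0.073 and 0.021 after quantile normalization and the normexp correction, and Fa2h at -0.35 as the mean of its probes.

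Transcription factors known to act on UGT genes were measured through 10 genes, of which 0 passed and 0 were higher and 2 lower at an unadjusted limma p under 0.05, against 9.47% and 7.65% of all entries (median 0.06). Ppara had a difference of 0.49 ± 0.35 and Hnf4a -0.33 ± 0.14 (SE). The Ppara value was 0.15 without corn oil replicate 3, 0.30 without anthraquinone replicate 2 and 0.81 on the shared slide, and that of Hnf4a was -0.20 as the mean of its probes. Of 7 marker enzymes of these factors, 2 were measured, and both rose: Hmox1 by 2.14 ± 0.15 and Nqo1 by 1.82 ± 0.12 (SE, limma adjusted p = 0.0311 for each). The size of both was similar with any 1 array left out (Hmox1 1.99 to 2.23, Nqo1 1.73 to 1.91), but without 1 array Hmox1 no longer passed in any of 6 cases (limma adjusted p = 0.0608 to 0.154), and Nqo1 passed in 1 case, without corn oil replicate 3 (limma adjusted p = 0.0310). With the replicate number as a block, which does not pair the animals, neither passed (limma adjusted p = 0.191 for each). The shared slide alone is the case without corn oil replicate 1 (limma adjusted p = 0.0929 for Hmox1 and 0.175 for Nqo1). The aryl hydrocarbon receptor markers Cyp1a1, Cyp1a2 and Cyp1b1 and the markers Cyp2b1 and Cyp3a9 did not pass the filter on dim probes. No member passed the same threshold. The estimate of Ugt2b7, 2.27, was larger than those of these 2 markers, with a wider SE of 0.81. Whether the members differed less than these 2 markers was not tested.

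**Figure D5:**
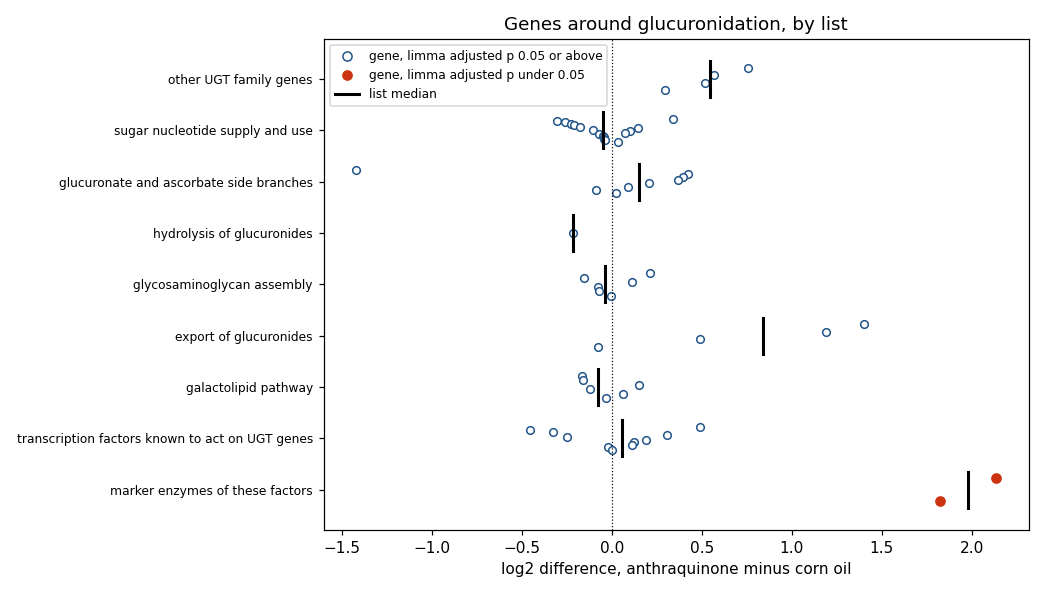
Log2 difference between anthraquinone and corn oil (x axis) of each tested gene in 9 lists around glucuronidation (y axis), with the list median as a bar; filled red points passed the limma test over all entries. Among the genes shown, Hmox1 and Nqo1 passed. List medians lie right of 0 for marker enzymes (1.98), glucuronide export (0.84) and other UGT genes (0.54). So do those for glucuronate and ascorbate side branches (0.15) and transcription factors (0.06), and the remaining medians lie left of 0.

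Markers of other cell types were read beside these values. The summed level of the hepatocyte list was 1.89 to 4.97 in corn oil versus 0.483 to 1.103 in anthraquinone, with 2 of 6 markers well above background on all arrays and Apoa2 and Ttr on none. Within it, and picked out after the values were seen, the male-specific steroid hydroxylase gene Cyp2c11 was at 1.49, 2.16 and 0.20 in corn oil versus -0.61, -4.15 and -4.97 in anthraquinone, while the fibrinogen gene Fgb differed by -0.17 ± 0.27 (SE). The red cell list, with 2 of 2 measured markers well above background on all arrays, summed to 186 to 228 in corn oil versus 282 to 375 in anthraquinone, also without overlap. The principal cell list, with 5 of 5 markers well above background on all arrays, summed to 163 to 191 and 137 to 172. Summed levels of the thick ascending limb and distal tubule (4 of 5 markers well above background on all arrays, 525 to 635 and 422 to 616), intercalated cell (4 of 4, 109 to 119 and 103.8 to 126), podocyte (5 of 5, 28.3 to 29.6 and 26.2 to 28.6) and endothelium lists (4 of 4, 30.8 to 33.6 and 28.7 to 33.9) overlapped between the groups. So did those of the fibroblast and mesangium (3 of 4, 8.64 to 14.2 and 9.36 to 13.1), macrophage and leukocyte (4 of 5, 34.9 to 48.6 and 37.8 to 46.2) and urothelium lists (3 of 5, 0.260 to 0.358 and 0.248 to 0.297). A summed level is led by the brightest probes of its list, so the direction of single markers was counted too. Of 4 tested thick ascending limb and distal tubule markers, 0 had a difference above 0 (median -0.29). Of 5 principal cell markers 1 did (median -0.46), and of 10 proximal tubule markers 7 did (median 0.07), where 51.6% of all entries did. In these 3 lists, 0 markers passed over all entries. The part of the cell types in the values of the members was not tested.

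By the rule for likeness, the named genes whose values over the 6 arrays were most like those of Ugt2b7 were Csrnp1 (Pearson r = 0.994), Asf1a (r = 0.992) and Parm1 (r = 0.991). There were 11831 named entries, and these genes were the highest after the members were left out. The comparison was over 6 arrays that share groups and scaling, and it is given with no test. Csrnp1 was at -0.43, -0.34 and -0.68 in corn oil versus -0.36, 0.03 and 0.28 in anthraquinone. It thus repeated, over a much smaller range, the spread of Ugt2b7 among the treated animals.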

How the data were processed

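Per the file headers, the deposited scanner files hold spot intensity on a linear scale from 1-colour arrays, read out with Feature Extraction version 10.7.1.1 from Agilent (10.7 in the submitters' processing notes); background and spatial trend were corrected before deposit, and arrays were not scaled. The authors' deposited value table holds the same intensity divided by a constant per array (90.7 to 97.0% of probes within 0.01 log2), with its scale not given in the sources used here.

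From 61657 non-control probes, 2 to 13 outlier-flagged spots per array were left out and log2 values were set to the 75th percentile. The filter (every array of either group well above background) kept 41310 probes. Accessions were matched to RefSeq symbols (GRCr8), with 1 entry per gene, its brightest probe, and 32663 entries in all. limma 3.58.1 (R 4.3.3) compared the groups, with Benjamini-Hochberg adjustment over all entries or all probes. The procedure was tested on simulated data. Of 50 genes given a log2 change of 0.5 it recovered 18%, with 72% at 1, 86% at 2 and 92% at 3. P-values set the difference between the groups against the spread between these 3 animals per group, with each variance drawn toward that of all entries or probes. The number of arrays limits precision.

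The members, lists, motifs and naming rules were chosen with earlier results of these data known. All members and their probes are named; of each list, the up to 3 largest differences and any gene past the threshold, except that some items are not reported here. Normexp (offset 50) used median spot signals, since the files give no mean. Alternatives were scaling, background, filter, probe averaging, the value table, the variance model, blocks and each array left out.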

Additional observations from a re-analysis of the deposited data

How the results depend on the processing

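Under 16 alternatives, 0 of the 7 measured members passed the limma test. Ugt1a6, Ugt2b7 and Ugt2b35 stayed above 0 and Ugt8 below 0 in all 16, from 0.13 to 0.41, 1.54 to 3.09, 0.28 to 0.76 and -0.45 to -0.19. The 16 are not separate checks of sign. Those on the filter, the variance model and the replicate block left these estimates unchanged. The slide block is the same fit as leaving out corn oil replicate 1. Ugp2 turned sign after quantile normalization (-0.052) and with the normexp correction (-0.050), and ranged from -0.062 to 0.10 with each array left out. Ugt1a1 turned with normexp (-0.0034) and ranged from -0.15 to 0.18 with each array left out, and Ugdh from -0.14 to 0.023; Ugp2 and Ugt1a1 were below 0 without corn oil replicate 3 or anthraquinone replicate 3, and Ugdh above 0 without anthraquinone replicate 1. The count of 9 entries past the threshold was 17 with normexp, 81 with an intensity trend and robust variance, 2 with the slide as a block and 1 to 25 with each array left out (1 without corn oil replicate 2 or anthraquinone replicate 1 or 2, and 25 without corn oil replicate 3). Without the filter on dim probes it was 6611, of 49481 entries, and Abcc4 passed there (limma adjusted p = 0.0316); the cause was not tested. Over single probes the count of 14 became 8386 without the filter and 1 to 26 with each array left out. With the replicate block, 1 entry and 1 probe passed and no member did; the deviations of same-numbered arrays correlated at 0.03, -0.06 and -0.01, so the numbers do not pair the animals. For dim probes such as that of Ugt8, signal over background limits the size of a difference.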
